A study of Mus musculus with 24 samples.

Results

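Libraries of RNA pulled down with an antibody against N6-methyladenosine (m6A IP) were set against Input libraries of polyadenylated RNA, both from irradiated tumor myeloid cells, and both groups were chosen by their level of Lyz2, the gene for lysozyme M of myeloid cells. Of the 24 libraries of the series, 6 were members: the 3 labelled WT IR m6A IP and the 3 labelled Ythdf2 cKO IR Input. The labels and Lyz2 disagree for this pairing. By label the IP came from wild-type and the Input from knockout mice, whereas by Lyz2 both groups were low. The cells were CD11b+ myeloid cells sorted from MC38 tumors, a colon carcinoma line of the mouse that was implanted into C57BL/6J animals. WT mice carried floxed Ythdf2 alleles (Ythdf2 f/f) without Cre, and Ythdf2 cKO mice carried the same alleles with Cre expressed from the Lyz2 locus, so the floxed alleles were shared by both genotypes and deletion was limited to Lyz2-expressing cells. IR tumors received 20 Gy once and were collected 3 days later, and Ctrl tumors were not irradiated. The cells of each replicate were pooled from several young adult mice, and the replicates are described both as technical and as biological in the methods, so SEs and p-values measure the spread between these libraries. Whether an Input and an IP library were made from the same RNA was not given in the sources used here.

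m6A is the most common internal modification of mRNA. It is placed on nascent transcripts by a methyltransferase complex built around METTL3 and METTL14 with accessory subunits such as WTAP, VIRMA, ZC3H13 and RBM15, and it is read by YTH-domain proteins, of which YTHDF2 binds modified transcripts and promotes their decay. Modified adenosines lie mostly in long internal exons and around stop codons, often within a GGAC sequence, and are rare close to exon junctions. Tumor myeloid cells comprise monocytes, macrophages, neutrophils and dendritic cells, whose transcripts differ widely. The ratio of IP to Input for a gene therefore depends on its modification and on whatever else differed between the RNA of the paired libraries.

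Genotype was examined first. Lyz2 (ENSMUSG00000069516.8, chromosome 10, 117277331 to 117282321 in GRCm38) was measured at 445.8, 431.5 and 443.7 CPM (counts relative to the library total, here scaled by TMM over the 24 libraries) in cKO IR Input and at 91.1, 88.5 and 89.3 CPM in WT IR IP. It stood at 21540 to 23140 CPM in WT IR Input and at 19520 to 19810 CPM in cKO IR IP. In the unirradiated libraries, Lyz2 was low under the cKO label in both library types, at 322.6 to 330.9 CPM in Input and 86.7 to 91.8 CPM in IP, and high under the WT label. Among genes with a mean of at least 10 CPM, those other than Lyz1 and Lyz2 that differed at least 2-fold in the same direction between the genotypes in unirradiated Input and IP libraries numbered 2, Wdfy1 and Mmp2. Wdfy1, an adaptor of Toll-like receptor signaling, was lower by 2.19 (Input) and 1.91 (IP) on the log2 scale in unirradiated cKO, lower by 2.55 in cKO IR Input, and higher by 2.11 in cKO IR IP than in WT IR IP. Mmp2, a gelatinase of the extracellular matrix, was higher in cKO by 1.28 and 1.06 in the unirradiated Input and IP and by 0.92 in the irradiated Input, and had a log2 difference of -1.11 in the irradiated IP. Lyz2, Wdfy1 and Mmp2 thus each showed the opposite order of the genotype labels in the irradiated IP libraries. These levels are a description, because Lyz2 chose the groups.

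**Figure D1:**
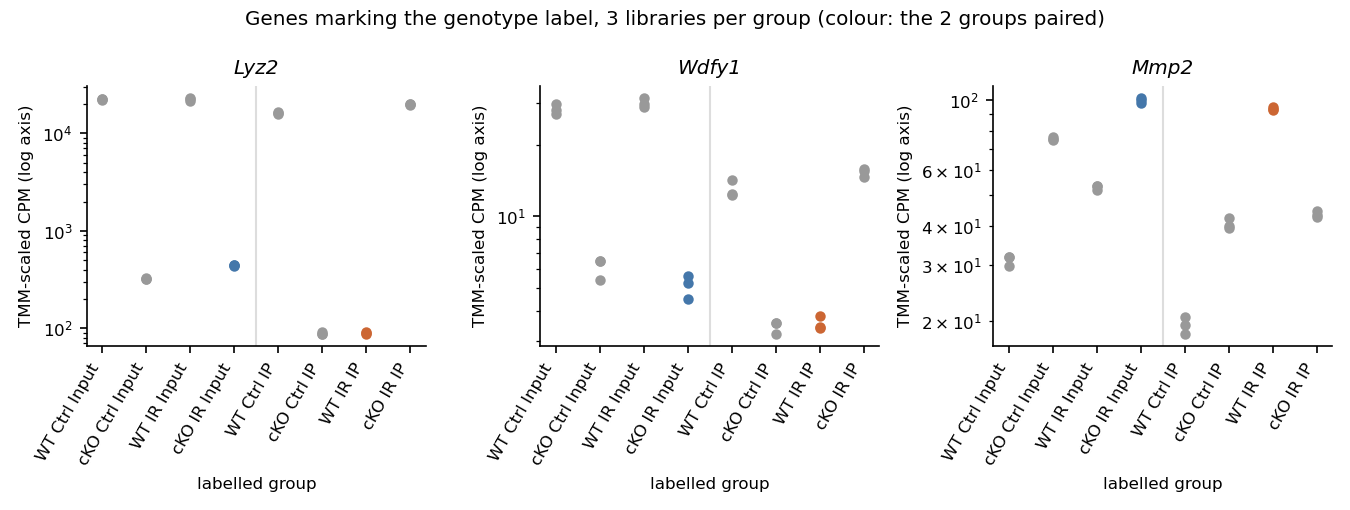
Levels of Lyz2, Wdfy1 and Mmp2 (TMM-scaled CPM, log axis) in the 8 labelled groups, 3 libraries each as points, with cKO IR Input in blue and WT IR IP in orange. Lyz2 lay at 431.5 to 445.8 CPM in the blue and 88.5 to 91.1 CPM in the orange group, near the cKO Ctrl groups and far below the 19520 to 23140 CPM of the other irradiated groups.

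Ythdf2 itself (ENSMUSG00000040025.17, chromosome 4, 132184912 to 132212303), the floxed gene, was measured at 248.7, 235.7 and 234.0 CPM in cKO IR Input and 154.1, 150.8 and 168.0 CPM in WT IR IP. Input libraries labelled WT held less of it, at 103.1 to 114.7 CPM, and cKO Ctrl Input held 188.7 to 201.4 CPM. The gene counts cover the whole gene, and the exons removed by Cre were not counted separately, so this level does not check the deletion. Within the pairing, Ythdf2 was lower in IP by 0.62 on the log2 scale (SE 0.036), and against the Input of its own label the value was 0.47 (SE 0.049).

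The 6 libraries held 65.2 to 74.3 M gene counts (M, mega), and the common biological coefficient of variation was 4.45%. Markers of T, NK and B cells were close to 0 in all 6 libraries, with all 13 of them under 1 CPM in IP. Macrophage markers summed to 6107 to 6309 CPM in cKO IR Input and to 1733 to 1764 CPM in WT IR IP, and 7 of 8 were called lower in IP. For example, Adgre1 (F4/80) and Apoe, which carries lipids out of macrophages, were lower, whereas Mrc1 (CD206) was higher. Apoe alone stood at 2510 to 2590 CPM in Input and 30.4 to 33.3 CPM in IP, the largest part of the Input sum. Monocyte markers summed to 471.1 to 478.6 CPM in Input and 1407 to 1495 CPM in IP, with 5 of 6 higher. Ly6c2 was the lower one, at 96.2 to 97.6 CPM in Input and 49.1 to 53.5 CPM in IP. Neutrophil markers summed to 531.8 to 550.5 and 633.3 to 646.8 CPM, with 5 of 10 higher and 3 lower. CD11b and pan-myeloid markers summed to 2909 to 2983 CPM in Input and 2373 to 2382 CPM in IP. Among markers of tumor epithelium, Krt8, Krt18 and Krt19 were at or near 0, and Cdh1 (E-cadherin) made up most of a sum of 5.90 to 6.09 CPM in Input and 106.4 to 109.8 CPM in IP. In cKO Ctrl, macrophage markers likewise summed to 7101 to 7264 CPM in Input and 1397 to 1413 CPM in IP. A different mixture of cells in the paired libraries, fewer cells of a type or less RNA per cell, and enrichment by the antibody cannot be told apart in these data.

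The comparison asked which transcripts were over- or under-represented in the IP relative to the Input. Of 15314 genes tested, 11943 (78%) differed, with 6037 higher in IP (39.4%) and 5906 lower (38.6%) at a Benjamini-Hochberg adjusted p under 0.05 (edgeR quasi-likelihood test). At least 2-fold changes were called for 2666 higher (17.4%) and 2556 lower genes (16.7%). Values of the 3 IP libraries all lay above the 3 Inputs for 40.3% of genes and all below for 39.5%. The median over all genes was 0.0085 on the log2 scale, and 0.21 when libraries were scaled by their totals alone. With most genes called, the size of a ratio and its place among all genes carry more than the call. Protein-coding genes numbered 12618, of which 17% were at least 2-fold higher and 15.4% at least 2-fold lower. Long intergenic noncoding RNAs had a median of 0.65 with 38% at least 2-fold higher, and processed pseudogenes a median of -0.49 with 31.4% at least 2-fold lower.

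Among called protein-coding genes with a mean of at least 10 CPM, the 12 with the highest ratios were barely present in the Inputs, at under 8 CPM. Car4 (ENSMUSG00000000805.18, chromosome 11, 84957786 to 84966044), a carbonic anhydrase anchored to the cell surface, was measured at 0.24, 0.24 and 0.28 CPM (scaled over the 6 libraries) in Input and 196.6, 194.9 and 193.8 CPM in IP. The Inputs rested on 49 counts in all, and the fitted log2 ratio was 9.57 (SE 0.070, adjusted p = 6.1e-35). Plet1 (ENSMUSG00000032068.14, chromosome 9, 50494525 to 50505482), a surface protein of placental and epithelial cells, was measured at 3.98, 3.43 and 2.73 CPM in Input and 686.8, 687.0 and 692.8 CPM in IP, a log2 ratio of 7.66 (SE 0.055, adjusted p = 3.8e-35). Ccdc80, a secreted matrix protein, stood at 7.62 to 7.98 CPM in Input and 516.4 to 539.4 CPM in IP (log2 6.08). Genes were eligible only if every IP library lay on the same side of every Input library, so this separation was fixed by the choice. Surface receptors among them were Ffar2, the receptor for short-chain fatty acids (log2 7.17), F2rl2, a receptor of the protease-activated family (6.55), and Il1rl1, the receptor for IL-33 (6.52). The others were Gja5 (connexin 40, 7.51), Pknox2 (a homeodomain factor, 7.02), Ccn3 (a secreted matricellular protein, 6.85), Slc39a2 (a zinc importer, 6.02), Rnase2a (an eosinophil ribonuclease, 5.88) and Irgc1 (5.63). Gja5, Pknox2, Il1rl1 and Slc39a2 rested on 21, 37, 49 and 59 Input counts. Mean levels of these 9 genes were 0.11 to 0.96 CPM in Input and 19.96 to 110.7 CPM in IP.

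The 12 genes with the lowest ratios included chemokines, a cytokine subunit and transcripts of macrophages. Cxcl5 (ENSMUSG00000029371.7, chromosome 5, 90759360 to 90761624), a chemokine for neutrophils, was measured at 85.1, 84.9 and 85.6 CPM in Input and at 0, 0.054 and 0.075 CPM in IP, where it rested on 10 counts in all, with a fitted log2 ratio of -10.90 (SE 0.13, adjusted p = 1.1e-30). Cxcl1, another such chemokine, stood at 73.96 to 75.86 CPM in Input and 0.40 to 0.91 CPM in IP (-6.78). Apoe (ENSMUSG00000002985.16, chromosome 7, 19696109 to 19699188) was measured at 2543, 2606 and 2632 CPM in Input and 33.4, 30.5 and 32.1 CPM in IP, a log2 ratio of -6.34 (SE 0.034, adjusted p = 1.6e-37). Saa3, an acute-phase apolipoprotein, fell from 741.0 to 764.0 CPM in Input to 13.96 to 15.02 CPM in IP (-5.71). Il12b, a subunit of IL-12 and IL-23, stood at 121.3 to 126.9 and 2.59 to 2.81 CPM (-5.52), and Nfkbiz, an atypical IkB protein that promotes IL-6 transcription, at 147.1 to 155.1 and 4.41 to 5.43 CPM (-4.96). The remaining genes were Lox, which crosslinks collagen (-7.06), Ms4a6b (-6.89), Ms4a7 (-5.92), Ms4a6c (-5.91), Clec4a1 (-5.84) and Apol7c (-5.21). Ms4a6b, Ms4a6c, Rnase2a and Apol7c have close paralogs, so their counts depend on how shared reads were assigned.

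**Figure D2:**
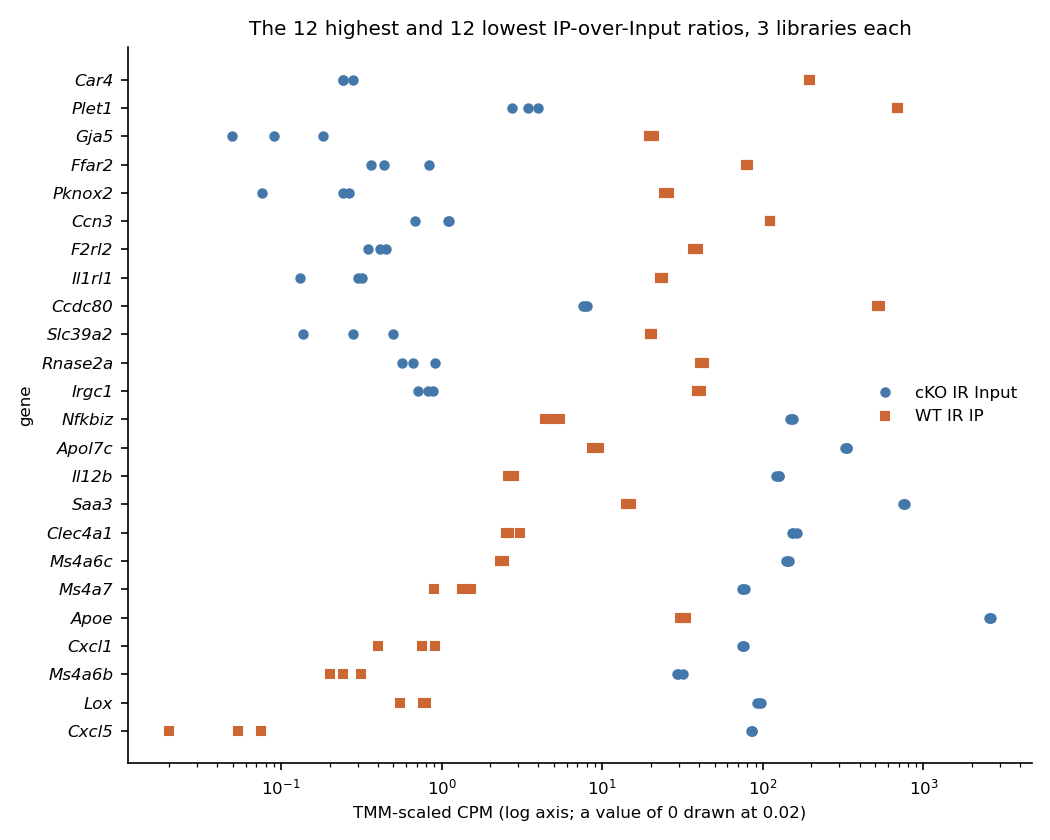
Levels of the 12 genes with the highest and the 12 with the lowest ratios (TMM-scaled CPM, log axis), with each of the 3 cKO IR Input libraries as a blue circle and each of the 3 WT IR IP libraries as an orange square. The groups were separated in all 24 genes by the rule that chose them. Car4 lay at 0.24 to 0.28 against 193.8 to 196.6 CPM and Cxcl5 at 84.9 to 85.6 against 0 to 0.075 CPM.

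Peaks called by the authors in the 3 IP libraries numbered 14870, 17442 and 15452. Consensus peaks, those of the first replicate that overlapped a peak of each other replicate on the same strand, numbered 10397. They marked 4006 of the genes tested (26.2%). All 12 genes with the highest ratios had 1 to 8 consensus peaks, and none of the 12 with the lowest had a peak in any replicate. Among genes at least 2-fold higher in IP, 55% had a consensus peak, against 0.43% of those at least 2-fold lower. Ratios rose with the number of peaks, from a median log2 of -0.30 without a peak to 0.43 with 1, 0.74 with 2 and 1.16 with 3 or more. These peaks came from the same IP libraries as the ratios and, at a given modification, a transcript with more IP reads is more easily called, so the relation is a description without a test. No consensus peak was found in 1201 of the 2666 genes at least 2-fold higher.

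Sequences at peak summits are shown for the genes with the highest ratios and for the targets named by the study. They are places at which reads of the IP piled up in these genes and where GGAC can be looked for. A GGACT within 50 bases of a summit in coding sequence or near the stop codon was found in 2 genes. A GGAC followed by another base was found in 6 more, a search that was widened after the values were seen. Of the genes searched, Car4, Gja5, Ffar2, F2rl2, Ccdc80, Rnase2a, Tnfaip8l2 and Socs3 had consensus peaks but no such match. Each stretch shown comes from the gene's strongest such peak with a match, so stronger peaks could be passed over. It was the gene's highest peak in Slc39a2, Irgc1 and Smpdl3b but not in the other genes. In Metrnl its enrichment was 2.04-fold against a highest of 7.78-fold, and in Plet1 26.9 against 52.0. Each stretch of 25 bases is given on the gene's strand from GRCm38, with GGAC and the base after it in capitals:
Plet1, coding sequence, chr9:50494586-50494610: tccacacctgGGACTgttcctgtgc
Pknox2, coding sequence near the stop codon, chr9:36893030-36893054, minus strand: ccatcaacttGGACAacctgcagtc
Ccn3, coding sequence, chr15:54746251-54746275: gctcggtgctGGACGgctgctcctg
Il1rl1, coding sequence near the stop codon, chr1:40461952-40461976: tacaggttggGGACCtgcaagattc
Slc39a2, 3' UTR near the stop codon, chr14:51895570-51895594: ctacttctaaGGACActccctcaat
Irgc1, coding sequence near the stop codon, chr7:24432201-24432225, minus strand: agatggctgaGGACGcccaacgcgt
Metrnl, coding sequence, chr11:121707885-121707909: agcctttcagGGACTcctctggagc
Smpdl3b, coding sequence, chr4:132746646-132746670, minus strand: acctgcatctGGACCccaactacac
In Ccn3 and Smpdl3b the A of GGAC lay 1 base from the summit, and in Slc39a2 it lay 49 bases away. The base after GGAC was not restricted, and it was G in Ccn3 and Irgc1, so these are matches to GGAC only. Searched on the gene's strand, GGACT was found in 10.9% of 5804 windows reaching 50 bases to each side of summits in coding sequence and in 11.6% of 4418 windows centred 150 bases away in the same exon. In 3' UTRs the shares were 13.6% of 1702 and 11.7% of 2746 windows. GGAC was found in 37.9% and 41.2% in coding sequence and in 36.1% and 32.6% in 3' UTRs. A match is no evidence of a modified base, and the windows overlap where peaks are close.

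In this pairing, ratios also followed transcript structure. By the length of the longest internal exon, the median log2 ratio was -0.037 up to 150 bases, -0.15 at 151 to 200, -0.11 at 201 to 300, 0.29 at 501 to 1000 and 0.69 above 2000 bases, where 33.9% of 239 genes were at least 2-fold higher. In the single fit of all libraries, the median up to 150 bases was 0.286 in cKO Ctrl and 0.302 in WT Ctrl. For cKO IR IP over WT IR Input it was 0.231. In the same order, medians were -0.207, -0.223 and -0.19 at 201 to 300 bases. Above 2000 bases they were 0.136, 0.125 and 0.291. Medians thus rose from 201 to 300 bases to the longest bin in these pairings too. In cKO Ctrl and WT Ctrl the longest bin still lay below the shortest. By exon number, medians here were 0.43 for genes of a single exon, 0.60 for 2 exons and -0.12 for more than 20. Zinc finger genes of the Zfp series, which carry a long last exon of zinc finger repeats, had 120 of 177 members higher and 25 lower, with 50 at least 2-fold higher and a median of 0.61. Zfp473 rose most, from 0.16 to 0.39 CPM in Input to 9.43 to 9.94 CPM in IP (log2 5.08), with 55 Input counts.

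**Figure D3:**
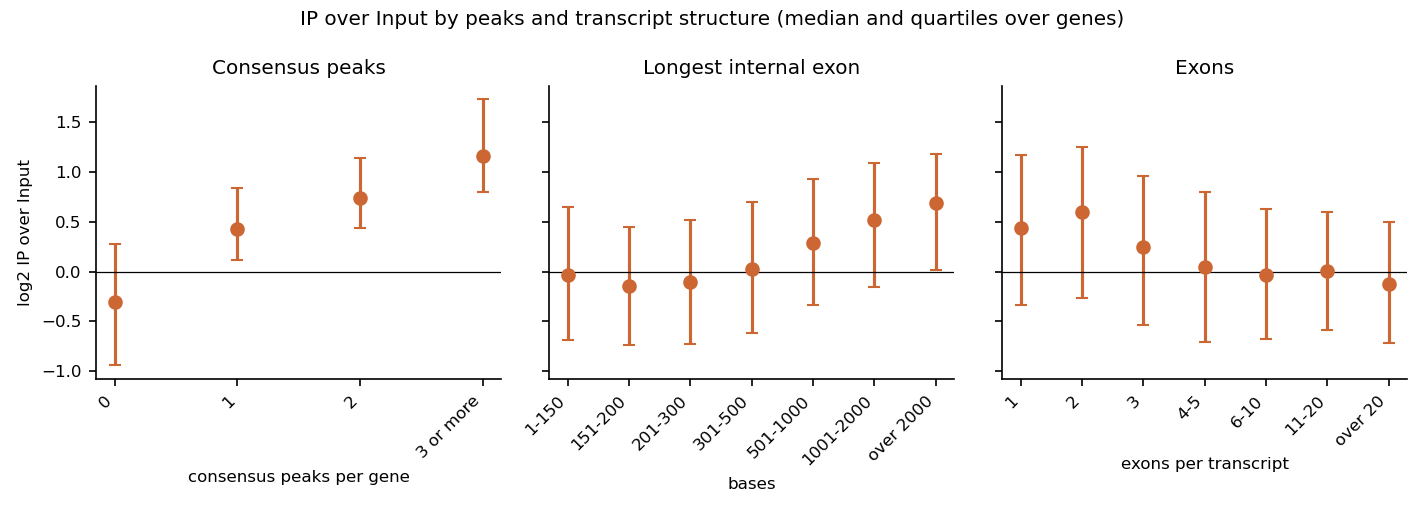
Log2 IP over Input by the number of consensus peaks per gene, the length in bases of the longest internal exon and the number of exons, with points for the median over genes and bars for the quartiles. Medians rose from -0.30 to 1.16 with peak number. By exon length they lay at -0.037 in the shortest bin, fell to -0.15 in the next and reached 0.69 in the longest, and by exon number they were highest, at 0.60, in genes of 2 exons.

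Transcripts of dividing cells were higher in IP throughout. All 27 genes of the cell cycle list were higher, 26 of them at least 2-fold, with a median log2 of 1.92. Mki67, the proliferation marker, was measured at 112.0, 110.0 and 111.8 CPM in Input and 1344, 1348 and 1355 CPM in IP (log2 3.60, SE 0.027). Cenpf, a kinetochore protein, rose from 8.42 to 10.80 CPM to 147.9 to 150.3 CPM (4.01), and Cenpe, a kinesin of the kinetochore, from 11.99 to 12.95 to 148.5 to 151.2 CPM (3.58). The smallest ratio on the list was 0.73, of Pcna, the sliding clamp of DNA replication. In the other pairings the list was also higher, with medians of 1.88 in cKO Ctrl, 1.55 in WT Ctrl and 1.66 in the high-Lyz2 irradiated pairing (24-library fit).

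Components of m6A metabolism included 12 higher and 4 lower of 20 genes, with a median of 0.48. Accessory subunits of the methyltransferase had the highest log2 ratios, 1.32 for Virma, 1.24 for Rbm15 and 1.15 for Zc3h13. Of the catalytic core, Mettl3 was lower with a ratio of -0.17, and Mettl14, at 0.073, did not pass the test. Virma was measured at 87.3 to 90.6 CPM in Input and 221.6 to 226.1 CPM in IP. Alkbh5, an m6A demethylase (-0.63), Ythdf2 (-0.62) and Igf2bp2, a reader that stabilizes transcripts (-1.50), were the other lower genes.

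Of 4 genes that the study names as YTHDF2 targets or regulators of NF-kB, 3 were higher in IP. The study chose them on libraries of this series, so their direction is not independent evidence. Tnfaip8l2 (TIPE2), a negative regulator of innate immunity, stood at 44.4, 46.1 and 46.7 CPM in Input and 212.2, 215.4 and 206.9 CPM in IP, a log2 ratio of 2.21 (SE 0.034). Smpdl3b, a lipase that dampens Toll-like receptor signaling, was higher by 0.95 (SE 0.043), and Metrnl, a secreted regulator of inflammation, by 0.79 (SE 0.034). Socs3, an inhibitor of JAK-STAT signaling, was measured at 95.5 to 100.8 CPM in Input and 81.9 to 83.8 CPM in IP, a log2 ratio of -0.26 (SE 0.035) that became -0.051 (adjusted p = 0.19) with library totals. All 4 genes had a consensus peak, with 1 each in Tnfaip8l2 and Socs3, 3 in Metrnl and 4 in Smpdl3b. Against the Input of the same label, these ratios were 2.92 for Tnfaip8l2, 1.66 for Smpdl3b, 1.19 for Metrnl and 0.16 for Socs3 (24-library fit).

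Within NF-kB signaling, the transcripts for the pathway itself were lower. All 10 NF-kB subunits and IKK kinases were lower in IP, with a median of -0.96, led by Relb (238.1 to 251.9 CPM in Input and 41.3 to 43.1 CPM in IP, -2.53), Rel (-2.48) and Nfkb2 (-2.13). Of 12 genes on the list of NF-kB inhibitors 9 were lower and 3 higher (median -0.58). The list includes Nfkbiz, an atypical IkB protein that also promotes transcription, so it does not hold inhibitors alone. Beside Nfkbiz, Bcl3 (-1.74) and Nfkbib (IkB-beta, -1.55) were lower, and the deubiquitinases Otulin (0.66) and Cyld (0.48) were higher. The SOCS family, which inhibits cytokine receptors, had 6 of 8 members higher. Cish, induced by STAT5, was measured at 5.12, 4.19 and 5.22 CPM in Input and 226.2, 228.3 and 219.0 CPM in IP (5.54, SE 0.052), Socs6 was higher by 2.92 and Socs1 by 1.03.

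Immediate early genes, short-lived transcripts of transcription factors, had 18 of 27 members higher and 7 lower, with 11 and 4 at least 2-fold and a median of 0.73. Klf4 stood at 8.0 to 9.85 CPM in Input and 199.1 to 210.1 CPM in IP (4.51), Egr1 at 6.16 to 7.73 and 68.8 to 71.8 CPM (3.32), and Egr2 at 44.3 to 45.8 and 356.6 to 368.8 CPM (3.0). In the opposite direction stood Dusp2, a phosphatase of MAP kinases (-2.33), and the nuclear receptors Nr4a2 (-2.25) and Nr4a3 (-1.84). Members of this list thus lay on both sides, as genes did at large. At least 2-fold higher were 40.7% of the list, against 17.4% of all genes, and at least 2-fold lower 14.8%, against 16.7%.

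Chemokines and their receptors also lay on both sides, beside 39.4% higher and 38.6% lower over all genes. Of 19 chemokine ligands tested, 6 were higher and 12 lower (median -1.08). Ccl17, which attracts CCR4-expressing T cells, rose from 30.9, 33.2 and 33.3 CPM in Input to 899.1, 922.4 and 904.7 CPM in IP (4.81, SE 0.034), and Ccl2, which attracts monocytes, from 12.1 to 14.1 to 244.1 to 255.5 CPM (4.25). Ccl5, a chemokine for T cells and monocytes, was measured at 699.1 to 723.1 CPM in Input and 35.6 to 37.8 CPM in IP (-4.27), and Cxcl16 at 773.5 to 782.1 and 69.6 to 71.6 CPM (-3.47). The receptors of monocytes Ccr1 (3.03) and Ccr2 (2.55) were higher, whereas Ccr7, which guides dendritic cells to lymph nodes (-1.86), and Cx3cr1 (-3.79) were lower. Of 15 cytokines 5 were higher, among them Csf1, the macrophage growth factor (17.9 to 18.3 CPM in Input and 243.0 to 254.5 CPM in IP, 3.78), and 9 lower, among them Il12a (-5.93) and Il6 (-3.01). Il10 rested on 107 Input and 7 IP counts, a log2 ratio of -4.13 (SE 0.74). Arg1, an enzyme of arginine breakdown in suppressive myeloid cells, stood at 4.79 to 6.77 and 56.2 to 58.2 CPM (3.31).

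Of 24 Toll-like receptors and adaptors 12 were higher and 10 lower, shares close to the 39.4% and 38.6% of all genes, so the counts say nothing particular about the list. Tlr4, the receptor for lipopolysaccharide, rose from 50.7 to 57.1 to 340.5 to 374.2 CPM (2.72), whereas its partners Cd14 and Ly96 were lower, with log2 ratios of -1.68 and -1.74. Tlr2 was higher by 1.21 and Tlr1 had a ratio of -2.90. Interferon-stimulated genes were lower in 27 of 33 cases and higher in 3, with a median of -0.84. Rsad2 (viperin) was measured at 32.3 to 35.9 CPM in Input and 6.08 to 6.55 CPM in IP (-2.44), and Usp18, which removes ISG15, at 39.7 to 43.2 and 6.78 to 9.04 CPM (-2.34). The GTPases Igtp (0.80) and Irgm1 (0.70) and the sensor Zbp1 (0.50) were higher. Of the 27 lists, the interferon-stimulated genes had the median that differed most with the choice of Input. With the same IP libraries set against WT IR Input, its median was 0.71, compared with -0.83 here in the same 24-library fit. Medians of 4 other lists beside the chromatin regulators also had the opposite sign against that Input: 0.15 for inflammatory cytokines, 0.058 for the nuclear respiratory chain, 0.16 for histones and -0.072 for p53 targets. These pairings share their IP libraries.

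Antigen presentation was lower for most genes. In MHC class I presentation 15 of 16 genes were lower (median -0.93), for example H2-Q7 (-2.81), with Tap2 the exception (0.47). In MHC class II 7 of 11 were lower and 4 higher. H2-Aa, an alpha chain, stood at 1151 to 1179 CPM in Input and 211.4 to 219.5 CPM in IP (-2.44), H2-Eb1 had a ratio of -2.49 and H2-Eb2 one of -4.30, whereas H2-DMa, which loads peptides, was higher (1.0). Haem and iron handling was lower in 11 of 12 genes, 9 at least 2-fold (median -1.89). Hmox1, which breaks down haem, stood at 1841 to 1998 CPM in Input and 274.3 to 283.1 CPM in IP (-2.78), and the iron exporter Slc40a1 (ferroportin) had a ratio of -2.49. The summed macrophage markers were 6107 to 6309 CPM in Input and 1733 to 1764 CPM in IP, and 7101 to 7264 and 1397 to 1413 CPM in cKO Ctrl. Apoe was the largest part of the sum in cKO IR Input. Dendritic cell markers moved the same way, with sums of 741.8 to 778.4 CPM in Input and 237.1 to 249.9 CPM in IP and 494.6 to 505.6 CPM in cKO Ctrl Input. Of 5 tested, 3 were lower and 2 higher, Ccr7 made up most of the sum, and Xcr1 and Siglech were near 0. The part of cell content in these ratios was not tested.

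In this pairing, housekeeping transcripts of short mRNAs were lower. Of 78 cytosolic ribosomal protein genes, 75 were lower and 2 higher, 53 of them at least 2-fold lower (median -1.34). Rps14 stood at 465.2 to 506.6 CPM in Input and 86.8 to 88.1 CPM in IP (-2.48), Rpl34 had a ratio of -2.50 and Rpl10 one of -2.20, whereas Rpl29 was higher by 0.26. Many of these genes have processed pseudogenes that can share reads. Of 77 nuclear genes of the respiratory chain 54 were lower and 12 higher (median -0.36), or 39 and 21 with library totals, with Ndufa12 highest (1.16) and Atp5e lowest (-1.42). Against the Input of the same label the respiratory chain median was 0.058 (24-library fit). In cKO Ctrl, WT Ctrl and the high-Lyz2 irradiated pairing it was 0.29, 0.45 and 0.21. A median below 0 was thus found in this pairing alone. Of 13 mRNAs of the mitochondrial genome, 11 were lower and mt-Nd2 was higher (median -0.59). The direction of mt-Nd2 turned against the Input of the same label, with a ratio of -0.25 (24-library fit, adjusted p = 0.0099). mt-Nd3 (-2.58), mt-Nd6 (-2.10), mt-Co3 (-1.99) and mt-Co1 (-1.73) were lowest. mt-Nd6, the single mRNA encoded on the light strand, stood at 70.2 to 72.1 CPM in Input and 14.8 to 18.8 CPM in IP.

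Chromatin regulators with long coding sequences had 20 of 32 members higher and 6 lower, with 1 at least 2-fold (Chd7, 52.2 to 55.1 CPM in Input and 154.0 to 158.0 CPM in IP, 1.53) and a median of 0.24. Against the Input of the same label the median was -0.29 (24-library fit). In cKO Ctrl, WT Ctrl and the high-Lyz2 irradiated pairing it was -0.39, -0.63 and -0.34. A median above 0 was thus found in this pairing alone. Bptf (0.93) and Tet2 (0.87) followed, and the lysine demethylase Kdm6b (-0.86) and the methyltransferases Kmt2a (-0.54) and Kmt2c (-0.38) were lower. Factors of mRNA deadenylation and decay were lower in 18 of 27 and higher in 6 (median -0.25), but in 13 and 10 with library totals (median -0.043), with Tob1, which recruits the CCR4-NOT deadenylase, highest (0.91). Of 23 p53 targets 11 were higher and 9 lower, again close to the 39.4% and 38.6% of all genes, with Mdm2 (225.4 to 232.3 and 473.4 to 493.1 CPM, 1.09) and Gtse1 (1.92) higher and Pmaip1 (NOXA, -2.17), Rps27l (-1.21) and Fas (-1.06) lower. Glycolysis and hypoxia genes had 14 of 22 lower, Hif1a among them (-1.39), and 6 higher, such as Pfkp (1.11). With library totals 11 were lower and 9 higher, and the median went from -0.25 to -0.048. Cathepsins stayed within a narrow range, from -0.81 for Ctsf to 0.65 for Ctse, with none of 12 at least 2-fold apart. Of 14 abundant long noncoding RNAs 10 were lower, Rn7sk (87.8 to 93.8 and 8.56 to 9.80 CPM, -3.29) and Bc1 (-4.70), which are made by RNA polymerase III, most of all, and Neat1 (0.64) and Snhg5 (0.58) were higher. Replication-dependent histones, most of whose mRNAs lack a poly(A) tail, had 8 of 54 higher, such as Hist1h2af (3.35), and 13 lower, such as Hist1h3e (-1.67). Their median, -0.095, became 0.11 with library totals.

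**Figure D4:**
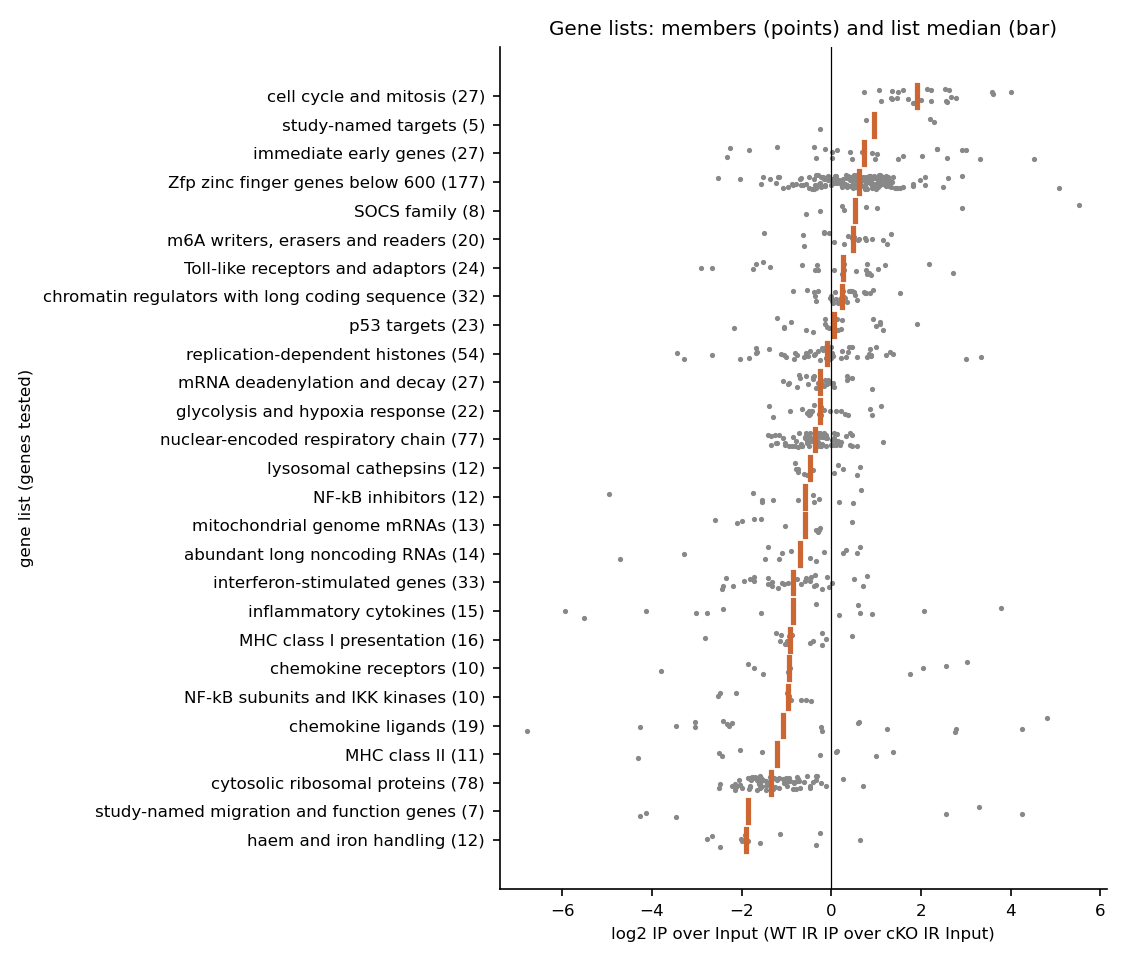
Log2 IP over Input of the genes tested on each list (points) with the list median (bar), ordered by the median and with the number of genes in brackets. Medians ran from -1.89 for haem and iron handling to 1.92 for cell cycle and mitosis, and members of most lists lay on both sides of 0.

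The IP over Input ratio was then compared with that of the pairings that share no library with this one: cKO Ctrl, WT Ctrl, and the high-Lyz2 irradiated pairing of cKO IR IP with WT IR Input. In one fit of all 24 libraries, 2918 genes (16.8%) were at least 2-fold higher in the low-Lyz2 irradiated IP and 3439 (19.8%) in the cKO Ctrl IP. They shared 2220 genes, 76.1% of the former and 64.6% of the latter. For lower genes, 2017 were shared, 71.2% of 2833 (16.3% of genes tested) and 61.4% of 3287 (18.9%). Most of the large ratios therefore recurred without irradiation. Apoe, for example, had log2 ratios of -6.33 here, -6.79 in cKO Ctrl, -6.20 in WT Ctrl and -5.99 in the high-Lyz2 pairing, and Plet1 had 7.68, 8.02, 8.48 and 7.86.

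The difference of the ratio from that in cKO Ctrl was called for 8362 of 17373 genes (48.1%), 4382 higher (25.2%) and 3980 lower (22.9%). It was at least 2-fold for 793 (4.56%) and 559 (3.22%). From WT Ctrl, 9194 genes differed (52.9%), with 26% higher and 26.9% lower. From the high-Lyz2 irradiated pairing, 7796 differed (44.9%), with 21.8% higher and 23.1% lower. Because the pairing by Lyz2 joins groups of different labels, a difference may hold irradiation, genotype and cell content together, and these cannot be told apart.

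Among called protein-coding genes with a mean of at least 10 CPM, the largest increases of the ratio over cKO Ctrl were those of Ltf and Ngp, which encode proteins of neutrophil granules. Ltf (lactoferrin, ENSMUSG00000032496.7, chromosome 9, 111019271 to 111042767) was measured at 274.5, 282.6 and 279.7 CPM in cKO Ctrl Input, at 17.2, 15.4 and 15.6 CPM in cKO IR Input, at 76.5, 81.9 and 77.7 CPM in cKO Ctrl IP and at 63.4, 66.8 and 57.1 CPM in WT IR IP. The difference of its log2 ratios was 3.78 (SE 0.065, adjusted p = 1.4e-29), of which the Inputs contributed a change of -4.12 and the IPs one of -0.34. Ngp, neutrophilic granule protein, showed the same (difference 3.49, Inputs -4.21, IPs -0.72), as did Cd177, a neutrophil adhesion protein (2.38, Inputs -2.40, IPs -0.017), Rab44 (2.35, Inputs -2.34) and Nhsl2 (2.07, Inputs -1.93). In these 5 genes the Input level moved more than the IP level. Summed neutrophil markers were 1477 to 1499 CPM in cKO Ctrl Input and 531.8 to 550.5 CPM in cKO IR Input, and 762.8 to 773.7 and 633.3 to 646.8 CPM in the corresponding IPs. These sums include Ltf and Ngp, so they are not separate from the values above. The part of neutrophil content in these differences was not tested.

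Ahnak2 (ENSMUSG00000072812.4, chromosome 12, 112772194 to 112802657), a very large scaffold protein, was the contrary case. Its Inputs overlapped, at 24.6 to 24.7 CPM in cKO Ctrl and 23.8 to 25.35 CPM in cKO IR, whereas the IPs held 21.9 to 22.5 and 106.0 to 108.7 CPM, a difference of 2.27 (SE 0.063). The other IP groups held 9.37 to 10.2 CPM (WT Ctrl) and 45.4 to 47.0 CPM (cKO IR). Fn1 (fibronectin) moved in both library types, from 1001 to 1009 to 538.2 to 543.0 CPM in Input and from 350.9 to 362.2 to 845.4 to 876.8 CPM in IP (difference 2.17, SE 0.039).

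Of the 27 lists, mitochondrial mRNAs had the largest median difference from cKO Ctrl. mt-Co1, a subunit of cytochrome c oxidase, was measured at 4939 to 5171 CPM in cKO Ctrl Input, 2776 to 3228 CPM in cKO IR Input, 354.9 to 405.3 CPM in cKO Ctrl IP and 838.7 to 988.7 CPM in WT IR IP (difference 2.03, SE 0.086). Of 13 mitochondrial mRNAs 11 had a higher and none a lower ratio than in cKO Ctrl, with a median difference of 1.77, made up of 0.86 in the IPs and -0.83 in the Inputs. Mitochondrial genes took 3.39 to 3.75% of counts in cKO IR Input, the lowest of any Input group, and 0.924 to 1.1% in WT IR IP, the highest of any IP group. All 32 chromatin regulators had a higher ratio than in cKO Ctrl (median difference 0.70) and also than in WT Ctrl (0.86) and in the high-Lyz2 irradiated pairing (0.69). With library totals 31 of the 32 remained called against cKO Ctrl. Bptf stood at 200.7 to 202.9 CPM in cKO Ctrl Input and 136.4 to 146.2 CPM in cKO IR Input, and at 222.5 to 231.0 and 269.5 to 275.5 CPM in the IPs.

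Short housekeeping transcripts moved the other way. Of 78 cytosolic ribosomal protein genes 76 had a lower ratio than in cKO Ctrl, and none a higher one, with a median difference of -0.85. Rps14 went from 296.9 to 304.5 to 458.3 to 498.5 CPM in the Inputs and from 96.5 to 105.8 to 86.1 to 87.7 CPM in the IPs. Of 77 nuclear genes of the respiratory chain 72 had a lower ratio (median -0.77), and of 54 histone genes 18 had a lower and none a higher one (-0.86). Medians against the high-Lyz2 irradiated pairing were 1.79 for mitochondrial mRNAs, -0.64 for ribosomal protein genes and -0.60 for the respiratory chain, and 0.145 for histones, of the opposite sign. The interferon-stimulated genes had 23 higher and 2 lower against cKO Ctrl (0.49), but 1 higher and 26 lower against WT Ctrl (-0.77) and 28 lower against the high-Lyz2 pairing (-1.0).

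The decrease of the ratio was largest for Rnase2a (-2.31), BC035044 (-2.29), Csrp2 (-1.80), Avpi1 (-1.75), Ms4a6c (-1.63), P2ry10 (-1.47), Ccl17 (-1.47) and Clec4e (-1.46). BC035044 was measured at 4.03 to 4.55 CPM in cKO Ctrl Input, 7.06 to 8.10 CPM in cKO IR Input, 31.7 to 32.3 CPM in cKO Ctrl IP and 11.5 to 11.8 CPM in WT IR IP. Clec4e (Mincle), a receptor for mycobacterial lipids, rose in the Inputs from 594.6 to 616.8 to 929.5 to 993.0 CPM and fell in the IPs from 461.1 to 495.7 to 264.5 to 276.6 CPM. Ccl17 rose in the Inputs, from 13.5 to 14.7 to 30.45 to 32.8 CPM, and stood at 1097 to 1114 and 894.8 to 919.8 CPM in the IPs. Rnase2a rested on under 1 CPM in every Input.

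The dependence on transcript length differed in the same direction as these lists. Among transcripts up to 1000 bases the median log2 ratio was -0.34 here, 0.25 in cKO Ctrl, 0.28 in WT Ctrl and 0.18 in the high-Lyz2 irradiated pairing. Among transcripts over 6000 bases it was -0.031 here and -0.49, -0.58 and -0.44 in the others. The shift from cKO Ctrl arose in both library types: short transcripts had a median change of 0.35 in the Inputs and -0.25 in the IPs, and the longest ones had -0.24 and 0.25. The part of length in the differences of ribosomal, respiratory chain and chromatin genes was not tested.

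**Figure D5:**
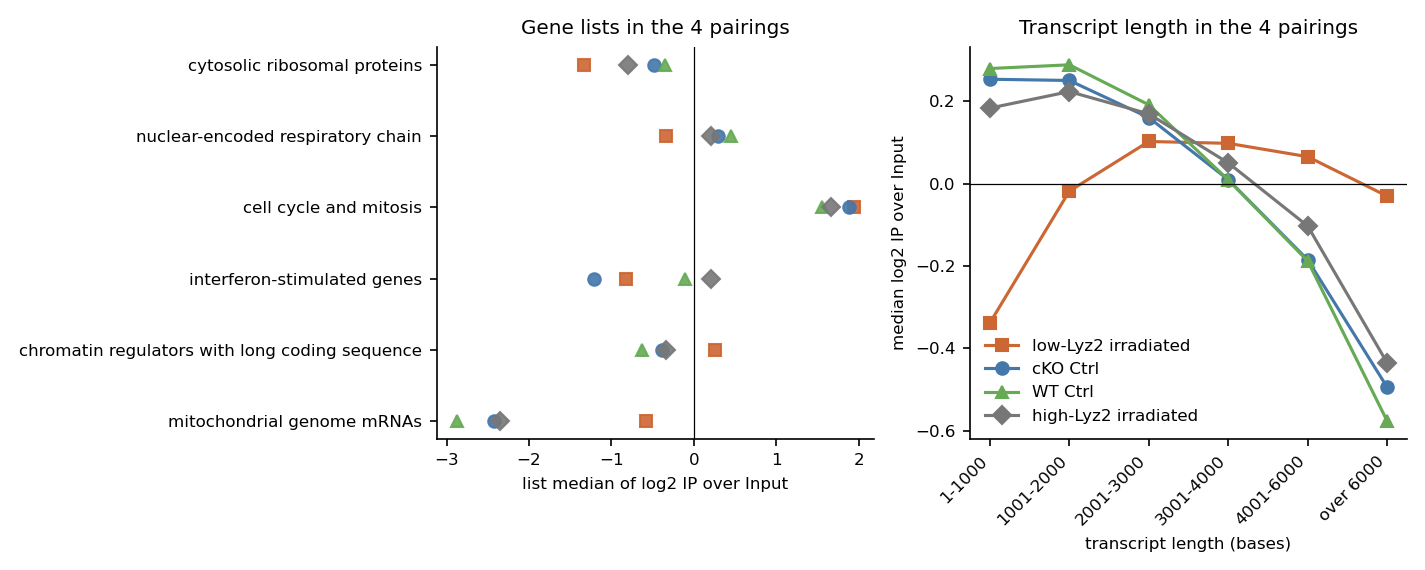
Left, median log2 IP over Input of 6 gene lists in the low-Lyz2 irradiated, cKO Ctrl, WT Ctrl and high-Lyz2 irradiated pairings (24-library fit), and right, the median over genes by transcript length in bases. The low-Lyz2 irradiated pairing (orange) had the highest median for mitochondrial mRNAs and chromatin regulators and the lowest for ribosomal protein genes, and its median for transcripts up to 1000 bases was -0.34 against 0.18 to 0.28 in the others.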

How the data were processed

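Polyadenylated Input and m6A IP RNA was sequenced in 24 libraries, 3 in each of 8 groups. According to the study's methods, reads were trimmed with Trimmomatic 0.39, aligned to mm10 (GRCm38) with HISAT and counted per gene of GENCODE vM19 with HTSeq, with strand taken into account, and the authors deposited raw counts per library. The authors also deposited MACS2 peaks for each IP library, called on each strand, with a fold enrichment over control, a −log10 p-value and a score. Fold enrichments were used here, the −log10 p-values and scores were not, and the control library of the peaks was not given in the sources used here. Counts are limited by reads, without molecular identifiers.

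The groups were chosen by Lyz2 counts, as described in the report. The 5 HTSeq summary rows were left out of library sizes and tests (no-feature reads were 3.56 to 4.14% and ambiguous reads 2.25 to 2.58% in the 6 libraries). Of 54446 gene IDs, 54409 matched the GENCODE vM21 annotation, which gave names and positions on GRCm38. Genes that reached 10 counts in 3 or more of the 6 libraries were tested with the quasi-likelihood test of edgeR 4.0.16 in R 4.3.3, with TMM scaling and Benjamini-Hochberg adjustment, and called at an adjusted p under 0.05. Differences between pairings were contrasts of a single edgeR fit of the 24 libraries. CPM values are TMM-scaled, over the 6 libraries unless a sentence compares other groups, where they are scaled over the 24. DESeq2 1.42.0 was an alternative test, beside other scalings, filters, left-out libraries, a replicate block and the Input of the same label. The tests were first tried on simulated counts.

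Genes named are the 12 highest and 12 lowest ratios and the 8 highest and 8 lowest differences from cKO Ctrl among called protein-coding genes with a mean of at least 10 CPM, up to 3 rising and 3 falling called members of each gene list, genes named by the study (1 of which is not reported here), Ythdf2, Lyz1 and Lyz2. For the 12 highest and 12 lowest ratios, all IP libraries also had to lie on the same side of all Inputs. Other genes named, such as Adgre1, Mrc1, Cdh1, Cd14, Mettl3 and Mettl14, were chosen after their values were seen. The members and lists were chosen with earlier results of these data known. Replicates of one group differed beyond sampling noise (chi-square per degree of freedom 4.13 to 8.34), so all were kept as separate samples. Peaks were consensus where a peak of the first IP replicate overlapped by at least 1 base a peak of each other replicate.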

Additional observations from a re-analysis of the deposited data

Results flagged for a closer look

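The ratio of IP to Input differed from that of another pairing, by the test of the difference itself (edgeR quasi-likelihood test, 24 libraries), for 8362 genes against cKO Ctrl, 9194 against WT Ctrl and 7796 against the high-Lyz2 irradiated pairing. Among the genes named for the largest differences from cKO Ctrl, the log2 difference was positive for Ltf (3.78), Ngp (3.49), Cd177 (2.38), Rab44 (2.35), Ahnak2 (2.27), Fn1 (2.17), Nhsl2 (2.07) and mt-Co1 (2.03). It was negative for Rnase2a (-2.31), BC035044 (-2.29), Csrp2 (-1.80), Avpi1 (-1.75), Ms4a6c (-1.63), P2ry10 (-1.47), Ccl17 (-1.47) and Clec4e (-1.46). All 16 genes also passed the test with the same sign when the 12 libraries of these pairings were fitted alone. Against WT Ctrl the difference was 5.42 for Ltf, 3.94 for Ahnak2 and -2.57 for Ccl17.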

How the results depend on the processing

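Counts of called genes stayed within 1.5 times those given under the other scalings, filters and tests, with 5409 to 7245 higher and 4758 to 6131 lower genes, both the highest count of higher genes and the lowest of lower genes coming from library totals alone. Leaving out 1 library at a time gave 5597 to 5738 higher and 5580 to 5670 lower genes, 2340 to 2580 and 2309 to 2465 at least 2-fold, and differences of 7991 to 8086 genes from cKO Ctrl, 8812 to 8944 from WT Ctrl and 7394 to 7876 from the high-Lyz2 pairing. Whether replicate numbers pair the libraries could not be decided here, since by label the Input and the IP came from different mice. Same-numbered Input and IP deviations correlated at -0.163, 0.0115 and -0.152 over 8655 genes, and at 0.0379, -0.139 and 0.049 in cKO Ctrl. With the replicate block 5909 genes were higher and 5791 lower, 2638 and 2517 at least 2-fold, with 8246, 9085 and 7681 differences. Against the Input of the same label, 5982 genes were higher and 5836 lower, and 4 named genes changed sign: Fn1 (-0.076), mt-Nd2 (-0.26), Socs3 (0.15) and Ythdf2 (0.47). A further 7 named ratios lost their call against that Input, more than under any other setting. In the single fit of all libraries, Neat1 (0.093) and Ctse (0.22) did not pass against it (edgeR quasi-likelihood test, adjusted p = 0.068 and 0.091). The share of genes at least 2-fold higher with a peak was 36.6% with peaks of at least 4-fold and 58.7% with peaks in 2 of 3 libraries at a longer overlap, and 0 genes other than Lyz1 and Lyz2 marked the genotype at 4-fold. Cd163, at 0.64 (adjusted p = 0.046), lost its call under DESeq2, the block and 4 of the 6 left-out libraries, and Ciita, H2-DMb1 and Rpl3l lost theirs without 1 or another cKO IR Input library. The cause of these changes was not tested. Depth limits Cxcl5, Il10 and Il12a in IP and Car4, Gja5, Pknox2, Il1rl1, Slc39a2, Zfp473 and F2rl2 in Input, whose fitted ratios rest on few counts.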
